A study of Mus musculus with 6 samples.

Results

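Lipid droplet and fatty acid metabolism was followed through 10 genes in sorted MC-38 tumor cells with normal or reduced HIF-1α. The genes were chosen by name, with earlier results of these data known. They were Plin2 and Hilpda for the lipid droplet, Pnpla2 for lipolysis, Fabp4 and Fabp5 for fatty acid binding, Cpt1a for import into mitochondria, Fasn and Acaca for synthesis, and Scd1 and Scd2 for desaturation. All 10 were among the 22880 genes of the deposited table, and all 10 were kept among the 12014 genes tested.

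MC-38GFP cells derive from a murine adenocarcinoma of the colon and express green fluorescent protein. Both groups had been transduced with the lentiviral vector pLKO.1-puro, which in Mock cells served as the control and in HIF-1α-KD cells lowered HIF-1α, and the cells of neither group had been passaged in vivo beforehand. Orthotopic tumors grew in the cecum wall of C57BL/6 J mice, whose own cells kept normal HIF-1α, and living cells positive for GFP and negative for CD45 (leukocytes) and CD31 (endothelium) were sorted. RNA was sequenced in 3 Mock and 3 HIF-1α-KD libraries. Neither the labels nor the methods say whether a library stands for a single tumor, so the p-values below measure the spread between these samples, which may be technical.

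A lipid droplet is a core of triglyceride under a coat of proteins such as perilipin 2. Adipose triglyceride lipase, the product of Pnpla2, opens that store, and HILPDA binds and inhibits this lipase. HIF-1, the pair of HIF-1α and ARNT, binds DNA at a short core motif and is known to act on Hilpda in hypoxic cells, while fatty acid oxidation and the stearoyl-CoA desaturases both need oxygen.

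The values given per gene are normalized counts, in which the authors divided the reads of a gene by a factor of its library. Between 19845852 and 30809139 reads per library fell on genes. Log2 fold changes are HIF-1α-KD minus Mock on the scale of log2 (normalized count + 1), were tested with limma, and adjusted p-values were computed over the 12014 genes tested. Hif1a, the target of the knock-down, read 6914, 5424 and 4945 in the Mock libraries and 697.3, 3142 and 1928 after knock-down. All values after knock-down were under those of Mock, the lowest in HIF-1α-KD replicate 1 (log2 fold change -1.82, standard error, SE, 0.46, limma adjusted p = 0.219), without which the log2 fold change was -1.21. Markers of the sorted cell type were scarce: the epithelial genes Epcam, Krt8, Krt18, Krt19 and Cdh1 together had a normalized count of 492.9 in Mock replicate 3 and of 60.3 to 111 in the other libraries. Leukocyte markers (Lyz2, C1qb and 15 others) summed to 19496 in HIF-1α-KD replicate 3 and to between 3844 and 6898 elsewhere.

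Hilpda fell after the knock-down. In limma at an adjusted p-value under 0.05 it was the 1 member of 10 that was lower, in a comparison in which 0.383% of all genes tested were lower, and 0 members were higher, against 0.00832% of all genes. On the recovered reads edgeR also called Hilpda alone (background 0.391%), whereas DESeq2 called Hilpda and Fabp5 lower (2 of 10, background 1.56%), and both gave 0 higher members (background 0% in edgeR and 0.799% in DESeq2). At an unadjusted p-value under 0.05 with a fold change of at least 1.5, Hilpda, Fabp4 and Fabp5 were lower (3 of 10, background 3.46%) and 0 members were higher (background 4.02%). At an unadjusted p-value under 0.05 alone, limma gave the same 3 lower members (background 5.69%) and Acaca as a higher one (1 of 10, background 7.04%), a call of Acaca that was lost with edgeR, DESeq2 and TMM scaling and with any library but Mock replicate 2 left out. Between the groups there was no overlap of libraries for the same 3 lower genes (background 8.75%) and for Acaca among the higher ones (1 of 10, background 10.4%). The median log2 fold change of the members was -0.27, with 6 below 0, and that of all genes tested was 0.02.

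**Figure D1:**
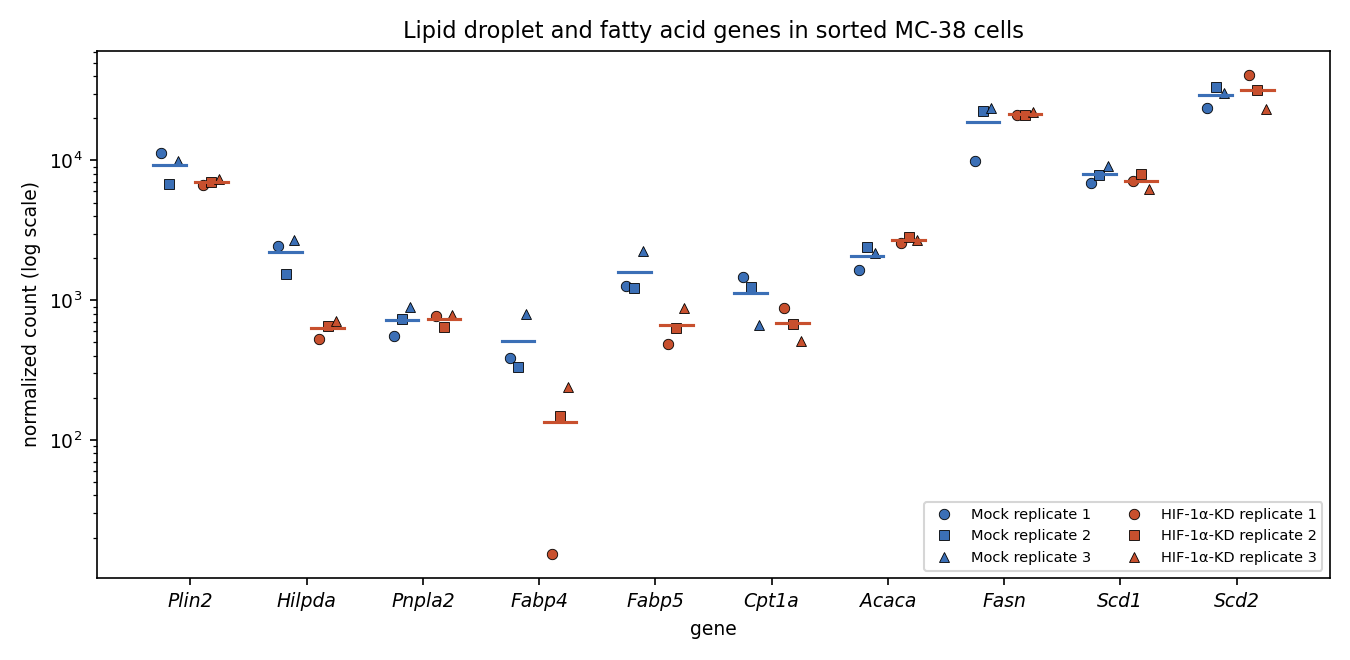
Normalized count (log scale) of the 10 members in each of the 6 libraries, with Mock in blue, HIF-1α-KD in red, a symbol for each replicate number and a line at the mean of each group. The HIF-1α-KD libraries lie below all Mock libraries for Hilpda, Fabp4 and Fabp5 and above them for Acaca, and Fabp4 in HIF-1α-KD replicate 1 (15.28) stands far below its group.

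Hilpda and Plin2 belong to the droplet itself, and their promoters, together with that of Fasn, are printed because they hold the core that HIF-1 binds. The core was searched on both strands, as ACGTG or with G first as GCGTG, in windows from 250 bases before to 50 bases after a RefSeq start site (GRCm38.p6). Windows were at hand for 6 members (7 windows, since Hilpda has 2). Those of Hilpda, Plin2 and Fasn held a core, whereas those of Acaca, Cpt1a and Pnpla2 held none of these letters. The Acaca window (chr11:84195188-84195487) lies inside the gene, which starts at 84129672. That of Cpt1a (chr19:3323051-3323350) also lies inside its gene, which starts at 3322334. The sequence before these gene starts was not searched. Cores are in capitals, and each sequence is written 5′ to 3′ on the strand of its gene.
Hilpda, chr6:29272376-29272675, + strand: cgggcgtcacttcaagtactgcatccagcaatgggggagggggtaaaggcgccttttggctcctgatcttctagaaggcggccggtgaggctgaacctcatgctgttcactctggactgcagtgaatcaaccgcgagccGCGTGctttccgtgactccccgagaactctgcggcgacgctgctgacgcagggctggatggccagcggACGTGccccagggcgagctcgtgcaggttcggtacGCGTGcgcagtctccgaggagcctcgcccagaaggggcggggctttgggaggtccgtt
Plin2, chr4:86670010-86670309, - strand: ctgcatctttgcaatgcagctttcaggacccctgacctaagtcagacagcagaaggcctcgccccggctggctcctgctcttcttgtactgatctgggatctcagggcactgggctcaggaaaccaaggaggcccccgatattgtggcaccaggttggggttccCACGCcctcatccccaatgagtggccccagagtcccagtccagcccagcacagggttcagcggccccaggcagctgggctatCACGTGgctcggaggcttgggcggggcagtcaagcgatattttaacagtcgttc
Fasn, chr11:120824498-120824797, - strand: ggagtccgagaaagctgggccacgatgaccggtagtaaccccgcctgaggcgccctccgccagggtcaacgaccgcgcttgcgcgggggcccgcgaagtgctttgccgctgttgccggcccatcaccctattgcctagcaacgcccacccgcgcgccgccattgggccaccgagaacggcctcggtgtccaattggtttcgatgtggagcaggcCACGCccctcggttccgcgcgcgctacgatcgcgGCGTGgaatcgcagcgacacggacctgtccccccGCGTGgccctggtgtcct
The Hilpda window holds 3 cores, at positions -111, -43 and -8 from the start site, and the overlapping window of its other start (chr6:29272238-29272537) holds only the first of these, counted again. The Plin2 window holds 3 matches, at -86, -4 and -3, of which the last 2 are the same CACGTG read on either strand. The Fasn window holds 3, at -36, -2 and 33. Of all 32851 such windows, 43.8% hold at least 1 core and 8.93% hold 3 or more, so a match by itself is common, and of the 3 genes printed here only Hilpda passed the test of the counts.

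Hilpda (ENSMUSG00000043421, chromosome 6, 29272488 to 29275446, + strand of GRCm38) encodes the hypoxia-inducible inhibitor of adipose triglyceride lipase. Its normalized counts were 2431, 1536 and 2674 in Mock libraries against 526, 652.3 and 709.2 after knock-down. The lowest Mock library stood far above the highest HIF-1α-KD library. The means were 2214 ± 599 (SD, n = 3) and 629 ± 93.8 (SD, n = 3), a level 3.52-fold lower in HIF-1α-KD cells. The difference on the log2 scale was -1.78 (SE 0.23, 95% interval -2.31 to -1.26, limma adjusted p = 0.0242). With a library left out in turn it stayed between -2.03 and -1.63, but the adjusted p-value of limma stayed under 0.05 only without Mock replicate 2 (0.0402) or HIF-1α-KD replicate 1 (0.0424), and was 0.109 without Mock replicate 1, 0.0949 without Mock replicate 3, 0.0798 without HIF-1α-KD replicate 2 and 0.0585 without HIF-1α-KD replicate 3. Without Mock replicate 3 and HIF-1α-KD replicate 3, which held the most epithelial and leukocyte marker RNA, it was 0.129 at a log2 fold change of -1.72.

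Plin2 (ENSMUSG00000028494, chromosome 4, 86648386 to 86670060, - strand) encodes perilipin 2, the coat protein of droplets in most cell types. Normalized counts were 11220, 6747 and 9830 in Mock libraries against 6649, 6962 and 7319 after knock-down. Mock replicate 2 lay among the HIF-1α-KD libraries, which were close to each other, while the other two Mock libraries were above them. On the log2 scale the difference was -0.38 (SE 0.19, 95% interval -0.82 to 0.06, limma adjusted p = 0.46), so a level as low as 0.568 times Mock and no decrease at all both lay inside the interval. The overlap rests on Mock replicate 2, without which the log2 fold change was -0.59 (limma adjusted p = 0.244) and the groups did not overlap, whereas without Mock replicate 1 it was -0.22 (limma adjusted p = 0.78).

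Pnpla2 (ENSMUSG00000025509, chromosome 7, 141455198 to 141460743, + strand) encodes the lipase that HILPDA inhibits. Its normalized counts were 552.7, 729.2 and 889 in Mock libraries against 774.6, 643.9 and 783.2 after knock-down, with all HIF-1α-KD values inside the range of Mock. Its log2 fold change of 0.04 (SE 0.21, limma adjusted p = 0.949) had a 95% interval from -0.43 to 0.51, which covers levels from 0.745 to 1.42 times Mock.

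Inhibitor and lipase were also set against each other within each library, which needs no scaling between libraries. The ratio of Hilpda to Pnpla2 in FPKM, reads per kilobase and per library total, was 8.32, 3.98 and 5.69 in Mock libraries against 1.28, 1.92 and 1.71 after knock-down. Every HIF-1α-KD ratio lay below every Mock ratio, by 1.83 on average on the log2 scale (exact permutation test, two-sided, p = 0.1, the smallest that 3 against 3 libraries can give, and 0.2 after adjustment over the 4 ratios tested). The ratio carries the Hilpda difference and is no second line of evidence.

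Fabp4 and Fabp5 encode small cytosolic proteins that carry fatty acids. FABP4 is known from adipocytes, macrophages and capillary endothelium, and FABP5 from epithelia and many tumors. Both genes lie in a cluster of 5 family members on chromosome 3 (10012548 to 10301183, 288.6 kb), in which Pmp2, Fabp9 and Fabp12 had normalized counts of at most 7.39 in any library. Outside it, Fabp1 and Fabp3 were at 0 and Fabp2, Fabp6 and Fabp7 had at most 1 read, so these 2 genes made up nearly all reads of the family.

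Fabp5 (ENSMUSG00000027533, chromosome 3, 10012548 to 10016607, + strand) had normalized counts of 1266, 1227 and 2256 in Mock libraries against 487.4, 631.9 and 886 after knock-down. All HIF-1α-KD libraries lay below all Mock libraries, with means of 1583 ± 583 (SD, n = 3) and 668 ± 202 (SD, n = 3). They differed by a log2 fold change of -1.23 (SE 0.29, limma adjusted p = 0.199), and DESeq2 on the recovered reads gave an adjusted p-value of 0.00297. Processed pseudogenes of Fabp5 resemble it closely and how reads with several matches were counted is not given in the sources used here, so its count is uncertain to that extent.

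Fabp4 (ENSMUSG00000062515, chromosome 3, 10204088 to 10208576, - strand) had normalized counts of 386.6, 331.1 and 802.1 in Mock libraries against 15.28, 148.7 and 238 after knock-down. The groups did not overlap, but HIF-1α-KD replicate 1, with 19 reads, was 15.6-fold below the highest library of its own group. The means were 507 ± 257 (SD, n = 3) and 134 ± 112 (SD, n = 3). The log2 fold change of -2.49 (SE 0.87, limma adjusted p = 0.32) was the largest in size among the members, and so was its SE. Without HIF-1α-KD replicate 1 it was -1.31, and DESeq2 did not give it an unadjusted p-value under 0.05.

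The FPKM ratio of Fabp5 to Fabp4 was 3.97, 4.50 and 3.41 in Mock libraries against 38.7, 5.16 and 4.52 after knock-down. Each HIF-1α-KD ratio was higher than each Mock ratio, although only barely in replicate 3 (exact permutation test, two-sided, p = 0.1, adjusted 0.2). The mean log2 difference of 1.30 came down to 0.29 without HIF-1α-KD replicate 1.

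Because cells other than tumor cells also use these genes, markers of such cells were read in the same libraries. Of the 8 adipocyte markers, Lep, Cfd, Plin1 and Cidec were at 0 in all 6 libraries and Adipoq had at most 2 reads, while the sum of the list (2578 to 3053 in Mock, 2064 to 2654 in HIF-1α-KD libraries) was almost all Adipor2, which many cell types express. The 17 leukocyte markers summed to 6440 to 6898 in Mock and to 3844, 4205 and 19496 in HIF-1α-KD replicates 1, 2 and 3. HIF-1α-KD replicate 3 had the highest sum and replicates 1 and 2 the lowest. Fabp4 and Fabp5 were below Mock in all of these. Within HIF-1α-KD replicates 1, 2 and 3, Fabp4 (15.28, 148.7 and 238) and Fabp5 (487.4, 631.9 and 886) rose in the order of the sum. Among Mock libraries the sum and both genes were highest in replicate 3. Of 15 leukocyte markers tested, 11 had log2 fold changes below 0 (73.3%, against 47.3% of all genes tested).

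The 11 endothelial markers summed to 607 to 731 in Mock and 447 to 591 in HIF-1α-KD libraries, without overlap. Of the 5 that were tested, only Cdh5, at 422.3, 532.1 and 568.9 in Mock libraries against 285.5, 395.7 and 197.5 after knock-down, had a p-value under 0.05 in limma (log2 fold change -0.84, background 5.69%), while the other 4 had log2 fold changes above 0, from 0.12 for Egfl7 through 0.26 for Pecam1, which encodes CD31, to 1.26 for Tek. The 5 tumor epithelial and the 8 intestinal epithelial markers were highest in Mock replicate 3 (492.9 and 288.7), where Fabp4 and Fabp5 were highest too. Of 10 fibroblast and pericyte genes tested, 5 had a p-value under 0.05, all higher in HIF-1α-KD cells (background 7.04%), and their list summed to 113960 to 260330 in Mock and 318770 to 447090 in HIF-1α-KD libraries, mostly Col3a1 and Col1a1. Which cells, tumor cells included, made this RNA was not tested. The part of these markers in the results for Fabp4 and Fabp5 was not tested, and in bulk RNA fewer cells of a type and less RNA per cell cannot be told apart.

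**Figure D2:**
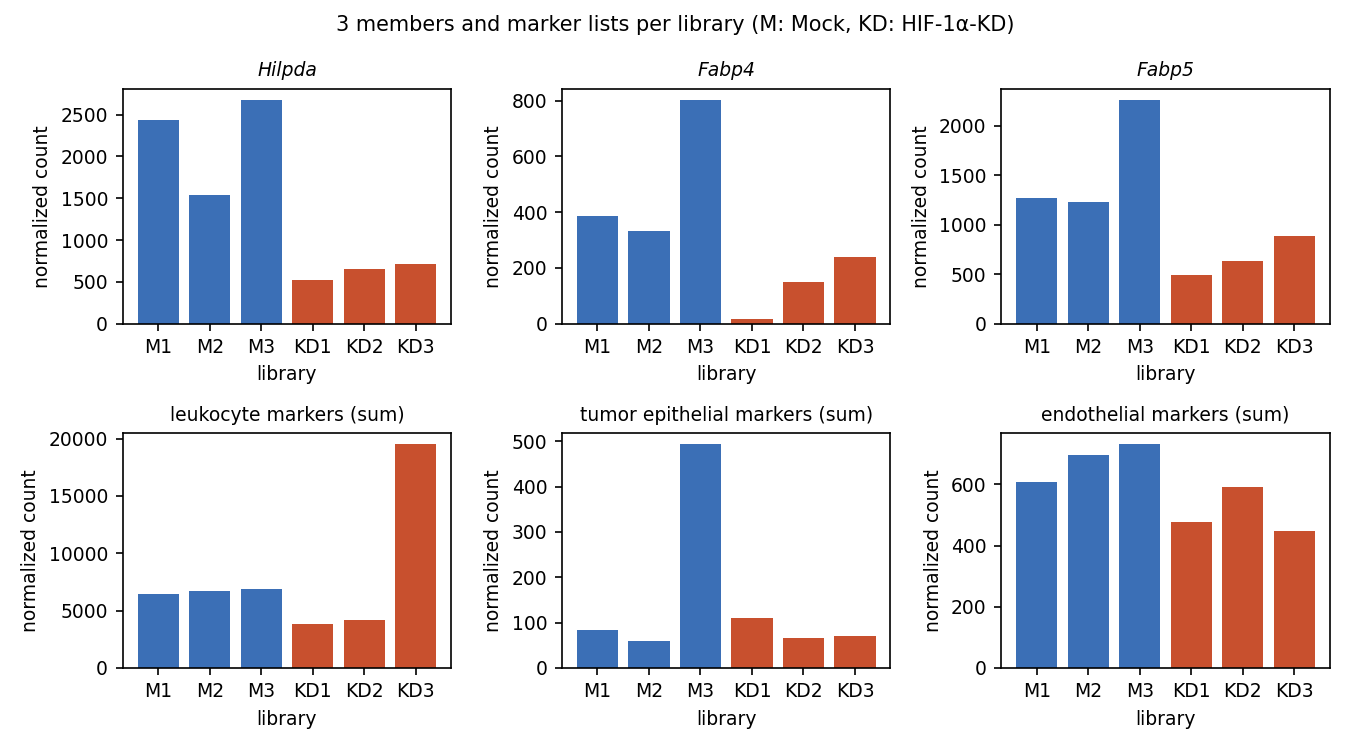
Normalized counts per library of Hilpda, Fabp4 and Fabp5 (top) and summed normalized counts of the leukocyte, tumor epithelial and endothelial markers (bottom), with Mock libraries (M) in blue and HIF-1α-KD libraries (KD) in red, and all axes from 0. Leukocyte markers peak in HIF-1α-KD replicate 3 (19496) and epithelial markers in Mock replicate 3 (492.9), while Hilpda is low in each HIF-1α-KD library.

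Without Mock replicate 3 and HIF-1α-KD replicate 3, a setting added after the data were seen, the log2 fold change in limma was -2.86 for Fabp4 (adjusted p = 0.372) and -1.17 for Fabp5 (adjusted p = 0.168). Without Mock replicate 3 alone it was -2.10 for Fabp4 (limma adjusted p = 0.442) and -0.94 for Fabp5 (limma adjusted p = 0.327). By count, 3 to 4 members were lower at an unadjusted p-value under 0.05 with a fold change of at least 1.5 under every setting tried, in which 2.62% to 4.96% of all genes tested were lower by that rule. With DESeq2, and also without Mock replicate 3 alone, these were Hilpda, Fabp5 and Cpt1a, so that Fabp4 was no longer among them.

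Cpt1a (ENSMUSG00000024900, chromosome 19, 3322334 to 3385733, + strand) encodes carnitine palmitoyltransferase 1A, which commits fatty acids to oxidation in mitochondria. Normalized counts were 1461, 1243 and 666.8 in Mock libraries against 874.3, 679.9 and 508.2 after knock-down. Mock replicate 3 lay within the range of the HIF-1α-KD libraries and the other two Mock libraries above that range. Cpt1a differed by -0.67 on the log2 scale (SE 0.31, 95% interval -1.38 to 0.04, limma adjusted p = 0.416). Without Mock replicate 3 it was -1.005 (limma adjusted p = 0.286), and without Mock replicate 1 it was -0.44 (limma adjusted p = 0.76).

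Acaca and Fasn encode the enzymes of fatty acid synthesis, acetyl-CoA carboxylase, which makes malonyl-CoA, and fatty acid synthase, which builds palmitate from it. Malonyl-CoA also inhibits CPT1. Acaca (ENSMUSG00000020532, chromosome 11, 84129672 to 84401651, + strand) had normalized counts of 1634, 2385 and 2192 in Mock libraries against 2563, 2836 and 2693 after knock-down. Each HIF-1α-KD library lay above each Mock library, the nearest pair being Mock replicate 2 and HIF-1α-KD replicate 1. The means were 2070 ± 390 (SD, n = 3) and 2697 ± 137 (SD, n = 3), and the log2 fold change of 0.40 (SE 0.17, limma adjusted p = 0.384) is below a fold change of 1.5. Without Mock replicate 1, the lowest library, it was 0.24 (limma adjusted p = 0.67), and with any other library left out it was 0.36 to 0.51.

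Fasn (ENSMUSG00000025153, chromosome 11, 120805846 to 120824547, - strand) had normalized counts of 9906, 22560 and 23770 in Mock libraries against 21040, 20980 and 22110 after knock-down. The HIF-1α-KD libraries were nearly alike, and Mock replicate 1 alone stood apart, below all others. Its log2 fold change of 0.29 (SE 0.30, 95% interval -0.40 to 0.98, limma adjusted p = 0.728) turned to -0.12 without Mock replicate 1. That library also had the lowest counts of Acaca, Pnpla2, Scd1, Scd2 and Acly among the Mock libraries.

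The FPKM ratio of Cpt1a to Fasn, import for oxidation against synthesis, was 0.129, 0.0483 and 0.0246 in Mock libraries against 0.0364, 0.0284 and 0.0202 after knock-down. The ranges overlapped, with the highest ratio in Mock replicate 1 and the lowest in HIF-1α-KD replicate 3. The mean log2 difference was -0.96 (exact permutation test, two-sided, p = 0.3, adjusted 0.4), and -0.32 at its smallest with a library left out.

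Scd1 and Scd2 encode stearoyl-CoA desaturases, which put a double bond into saturated fatty acids and use oxygen to do so. They lie in a cluster of 4 genes on chromosome 19 (44203269 to 44407879, 204.6 kb), of which Scd3 had at most 1 read and Scd4 a normalized count of 11.1 to 24.3. Scd1 (ENSMUSG00000037071, 44394455 to 44407879, - strand) had normalized counts of 6878, 7828 and 9132 in Mock libraries against 7101, 7988 and 6299 after knock-down. Scd2 (ENSMUSG00000025203, 44293674 to 44306864, + strand) had 23900, 33540 and 30160 in Mock libraries against 41090, 31700 and 23240 after knock-down.

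The groups overlapped for both genes, and HIF-1α-KD replicate 3 was the lowest library for either. The log2 fold change was -0.15 for Scd1 (95% interval -0.51 to 0.21, limma adjusted p = 0.726) and 0.11 for Scd2 (95% interval -0.41 to 0.63, limma adjusted p = 0.873). The FPKM ratio of Scd1 to Scd2 was 0.263 to 0.341 in Mock and 0.195 to 0.305 in HIF-1α-KD libraries (exact permutation test, two-sided, p = 0.4, adjusted 0.4). The coding sequences of the 2 genes resemble each other, so reads may be split between them.

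Per length, the members spanned a wide range of levels. In Mock cells the order by mean FPKM was Plin2 (427 ± 92.4, SD, n = 3), Scd2 (215 ± 42.7), Fasn (200 ± 84.1), Hilpda (107 ± 25.9), Scd1 (65.5 ± 9.37), Fabp5 (29.8 ± 10.4), Acaca (24.3 ± 5.28), Pnpla2 (18.7 ± 4.36), Cpt1a (10.5 ± 3.84) and Fabp4 (7.85 ± 3.84). Of neighbours in this order, overlapping libraries were seen for Fasn with both Scd2 and Hilpda, for Acaca with both Fabp5 and Pnpla2, and for Cpt1a with Fabp4. In HIF-1α-KD cells Hilpda stood in the sixth place (31.9 ± 5.44 FPKM), below Scd1 (61.1 ± 7.45) and beside Acaca (32.9 ± 2.34), and Fabp5 (13.2 ± 4.22) stood beside Pnpla2 (19.6 ± 1.97).

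The order depends on the length used. The width deposited for a gene was 0.359 times the longest coding GENCODE transcript for Acaca, 0.375 for Fasn and 0.456 for Plin2, but 2.86 times for Fabp4 and 2.14 times for Fabp5. Per kilobase of that transcript, a choice made after the data were seen, Scd2 came first in Mock cells by its mean (214), before Plin2 (195), and Fabp4 (22.4) came before Acaca (8.72). Differences between the groups for a gene do not depend on its length.

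**Figure D3:**
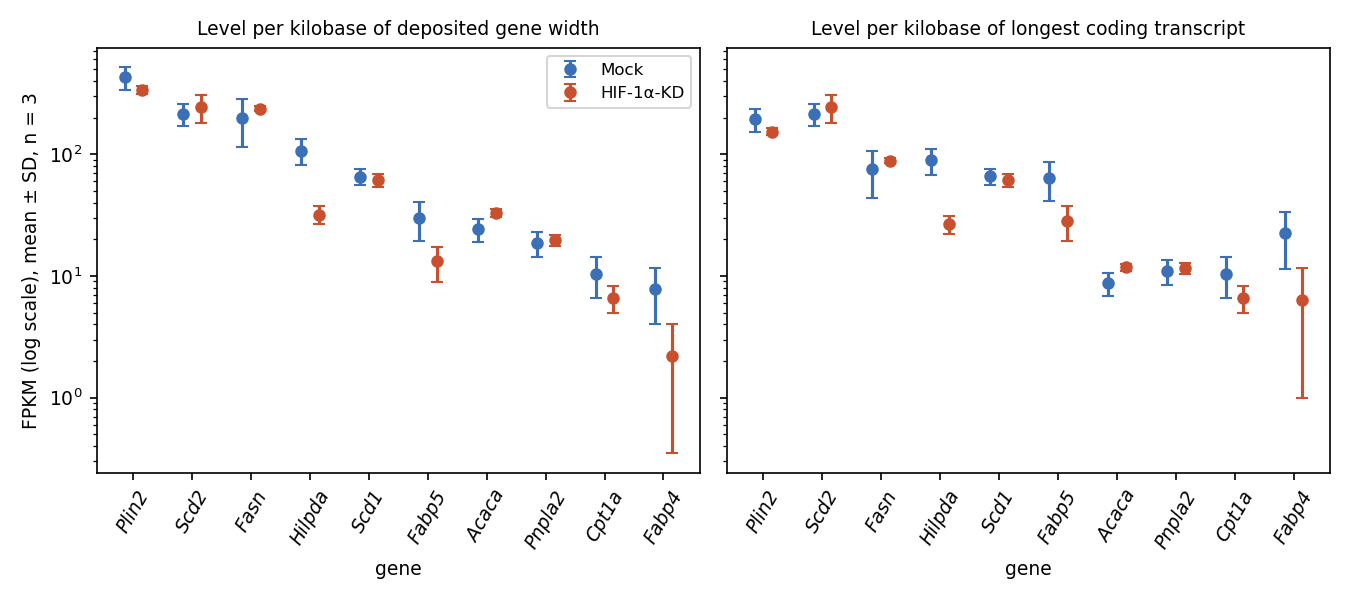
Mean FPKM ± SD (n = 3, log scale) of the 10 members in Mock (blue) and HIF-1α-KD (red) cells, per kilobase of the deposited gene width (left) and of the longest coding transcript (right), in the order of the Mock means on the left. Plin2, Scd2 and Fasn are at the top on the left, Hilpda drops from 107 to 31.9, and Fabp4 moves up on the right.

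The other genes of these pathways were read from 9 lists with 137 genes beside the members, of which 105 were tested. At an adjusted p-value under 0.05 limma gave 0 lower and 0 higher, with 11 lower (background 5.69%) and 2 higher (background 7.04%) of 105 at an unadjusted p-value under 0.05. After adjustment edgeR gave 0, and DESeq2 gave 4 lower (Angptl4, Elovl7, Hacd2 and Hadh, background 1.56%) and 0 higher (background 0.799%). The groups did not overlap for 15 lower genes (14.3%, background 8.75%) and 4 higher genes (3.81%, background 10.4%). Their median log2 fold change was -0.09, against 0.02 over all genes tested.

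Among genes of the droplet coat, 9 of 16 were tested, and Hilpda alone had groups that did not overlap (1 of 9, background 8.75%). Plin1, Cidea and Cidec, the coat proteins of fat cells, were at 0, and the other 8 tested genes had log2 fold changes between -0.38 (Plin2) and 0.20 (Bscl2). In the lipolysis list 6 of 10 were tested. Hilpda was again the only gene without overlap (1 of 6, background 8.75%), the same call as in the droplet list. Of the 6, 4 had log2 fold changes above 0 and 2 below (33.3%, against 47.3% of all genes tested), and the list's median was 0.09. Abhd5, the activator of the lipase, was at -0.28, and Lipa, the acid lipase of lysosomes, at 0.56, both with overlap. Of 14 tested genes of uptake, binding and activation, 3 were lower (background 5.69%) and 1 higher (background 7.04%) at an unadjusted p-value under 0.05, the lower ones including both members and the higher one being Acsl3, an acyl-CoA synthetase of the droplet (log2 fold change 0.45, limma adjusted p = 0.339).

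In the synthesis list 14 of 16 genes were tested, with 1 lower (background 5.69%) and 1 higher (background 7.04%) at an unadjusted p-value under 0.05, shares near the background. The lower one was Insig2, which holds SREBP in the endoplasmic reticulum (log2 fold change -0.70, limma adjusted p = 0.274). The groups did not overlap for 2 lower genes, Insig2 and the malic enzyme gene Me1 (log2 fold change -0.33, background 8.75%), and for 2 higher ones, Acaca and Mcat (0.27 for Mcat, background 10.4%). In elongation and desaturation, 3 of 17 tested genes were lower at that level (background 5.69%), Hacd2 and Hacd1, dehydratases of the elongation cycle, and the elongase Elovl7.

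Hacd2 had normalized counts of 7898, 5038 and 3949 in Mock libraries against 1971, 2719 and 2021 after knock-down (log2 fold change -1.29, limma adjusted p = 0.115). Elovl7 had 992.2, 569.4 and 730.8 in Mock libraries against 336.2, 443.7 and 391.6 after knock-down (log2 fold change -0.94, limma adjusted p = 0.214). Both separated the groups in every library, and their size was between that of Plin2 and that of Hilpda.

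Triglyceride synthesis had 13 of 16 genes tested, with 1 lower (background 5.69%) and 1 higher (background 7.04%) at an unadjusted p-value under 0.05, again near the background. Dgat2, which makes triglyceride from diacylglycerol, had a log2 fold change of -0.70 (limma adjusted p = 0.323), and Agpat6, the older symbol of the acyltransferase Gpat4, which acts at the first step, had 0.40 (limma adjusted p = 0.312).

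In the carnitine shuttle and mitochondrial β-oxidation all 24 genes were tested, and 19 (79.2%) had a log2 fold change below 0, against 47.3% of all genes tested. The groups did not overlap for 5 lower genes (20.8%, background 8.75%) and 1 higher gene (4.17%, background 10.4%). None reached a fold change of 1.5 at an unadjusted p-value under 0.05, and the list's median was -0.19. Hadh, a dehydrogenase of the cycle, had normalized counts of 4821, 4466 and 4415 in Mock libraries against 3126, 3124 and 3119 after knock-down, a narrow spread in either group (log2 fold change -0.55, limma adjusted p = 0.172). Eci2 was at -0.41 and Acadvl, which starts the cycle on long chains, at -0.34. Of the 12 tested genes of peroxisomal oxidation, 10 were below 0 (median -0.24), among them Crot (log2 fold change -0.36), whose groups did not overlap.

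Of the PPAR and lipid-sensing genes 7 of 11 were tested, and Ppara and Pdk4 were at 0. Angptl4, an inhibitor of lipoprotein lipase, had normalized counts of 531.8, 280.4 and 321.3 in Mock libraries against 62.74, 154.7 and 36.96 after knock-down (log2 fold change -2.33, SE 0.49, limma adjusted p = 0.14). Its groups were well apart, and after Fabp4 its log2 fold change was the largest in size among the list genes.

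The genes whose pattern was most like that of Hilpda, by Pearson correlation of log2 (normalized count + 1) over the 6 libraries, were Sap30 (r = 0.998), Apln (0.998), Rab24 (0.993), 0610010K14Rik (0.993) and Ciart (0.991). For Acaca they were Map3k6 (r = 0.996), Notch1 (0.995), Brca2 (0.994), Acbd4 (0.992) and Lrrk1 (0.992). These are the highest of 12014 values over 6 libraries that include the contrast of the groups, and are given as a description. Among the members, Hilpda and Fabp5 (0.927) and Fabp4 and Fabp5 (0.897) were the most alike, and Plin2 and Acaca (-0.876) the most opposed.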

How the data were processed

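RNA of 3 Mock and 3 HIF-1α-KD libraries was analysed, grouped by their labels. Per the paper's methods, the authors trimmed single-end reads, aligned them with STAR and counted them on genes with featureCounts. The labels name the build GRCm38 and the methods GRCh38, and the identifiers are those of mouse genes. The authors deposited normalized counts, a signal of reads divided by a factor per library, and FPKM, per kilobase of a deposited gene width. Deposited columns of the authors' comparison (log2 ratio, p-value, false discovery rate, cluster) were not used. Dividing by the value of 1 read gave back whole reads for 100% of values up to 300 reads (tolerance 0.1 reads). filterByExpr of edgeR 4.0.16 (minimum count 10) kept 12014 genes. On all of them limma 3.58.1 was run with its variance trend, on log2 (normalized count + 1), two-sided, with Benjamini-Hochberg adjustment, and was tested on simulated data. edgeR and DESeq2 1.42.0 were run on the recovered reads, and ratios of FPKM were compared by exact permutation tests.

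Members and lists were chosen with earlier results of these data known. Named were all members, Hif1a, up to 3 genes per lipid list with the smallest p-value among those without overlap of the groups beside any with an adjusted p-value under 0.05, the 2 highest genes and those at 0 of each marker list, and the 5 genes most like Hilpda and Acaca. A gene that this rule names is not reported here. Genes named beyond this (Abhd5, Bscl2, Lipa, Mcat, Acly, Pecam1, Tek, Adipoq, Epcam, Krt18, Krt19, family members and further genes at 0) were chosen after their values were seen. Replicate numbers were not taken as pairs. Positions are from GENCODE M21, promoters from RefSeq (GRCm38.p6). R 4.3.3 and Python 3.11.15 were used. Alternatives covered the test, scaling, filter, pseudocount (0.1 and 10), FPKM, a replicate block and leaving out each library.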

Additional observations from a re-analysis of the deposited data

How the results depend on the processing

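The count of members lower at an adjusted p-value under 0.05 was 1 in limma and 2 with DESeq2 (Hilpda and Fabp5). It was 0 with a replicate block for the shared numbers, whose relation between the groups the labels and methods do not give. It was also 0 without Mock replicate 3 and HIF-1α-KD replicate 3 together, a setting chosen after seeing the data. With each library left out in turn it was 0 to 1. Same-numbered libraries did not deviate together (correlations of -0.139, -0.123 and 0.023), and no library correlated best with its own number. Whether the numbers mark pairs is not known. In limma the block lowered the SE from 0.290 to 0.180 for Fabp5, from 0.874 to 0.608 for Fabp4 and from 0.312 to 0.185 for Cpt1a. It raised the SE for Pnpla2, Scd1 and Scd2. With the block the limma adjusted p-value of Hilpda was 0.0649, and the block left 0 of all genes called, against 46 lower and 1 higher without it, and 0 were called without Mock replicate 3 or without HIF-1α-KD replicate 2, whereas DESeq2 called 187 lower and 96 higher. Scaling by total reads moved the genes at an unadjusted p-value under 0.05 with a fold change of at least 1.5 from 416 lower and 483 higher to 324 lower and 613 higher, and FPKM to 332 and 580, while the counts of members stayed within 1.5 times. Of 160 values of members under alternatives, 145 kept direction and side of the threshold and 8 changed sign, all of genes with no call. The log2 fold change of Pnpla2 was -0.0014 with edgeR and -0.14 to 0.20 with a library left out, that of Fasn -0.12 to 0.52, that of Scd2 -0.091 to 0.32 and that of Scd1 -0.25 to -0.05, and without Mock replicate 3 and HIF-1α-KD replicate 3 together these were 0.35 for Scd2 and 0.038 for Scd1. Of 240 values of the other named genes 236 kept theirs, 4 passed the threshold with DESeq2, and 0 changed sign. For these reversals the cause was not tested. Depth was lowest for Fabp4, with 19 reads in HIF-1α-KD replicate 1.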
